A study of Homo sapiens with 8 samples.

Results

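The 39 genes described here encode the machinery of autophagy and the lysosome, from the kinase complex that starts an autophagosome to the proteases that digest its cargo. They were chosen as a list of gene symbols, and 38 of the 39 could be given values. HEXA, the alpha chain of hexosaminidase A, could not be placed in the deposited table and has no value here. The 38 were 38 of 18113 genes placed in the series. RNA-seq had been done on Raji, a Burkitt lymphoma line sensitive to rituximab, and on Raji-4RH, a rituximab-resistant line made from Raji. Chidamide, a histone deacetylase (HDAC) inhibitor, was given at 3 μM for 24 h, and DMSO, its vehicle, for the same time. The 4 groups were Raji DMSO, Raji chidamide, Raji-4RH DMSO and Raji-4RH chidamide, with 2 libraries each and no other genetic or drug difference stated. The cells were collected by flow sorting. Raji-4RH is 1 line, so a difference between the lines is a difference between these 2 cultures. The labels do not say whether replicates were separate cultures, so p-values measure the spread between these libraries, which may be technical.

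Macroautophagy wraps cytoplasm in a double membrane and delivers it to the lysosome. The ULK1 complex starts the process, the class III PI3K complex marks the membrane with the lipid PI3P, and WIPI proteins and ATG2 bind and extend it. Ubiquitin-like conjugation reactions then fix ATG8 proteins (the LC3 and GABARAP families) to the membrane, and receptors such as p62 (SQSTM1) and NBR1 tether cargo to ATG8. The transcription factors TFEB and TFE3 drive many of these genes and lysosomal genes through the CLEAR element, an E-box. In lymphoma cells autophagy is known both as a way to survive drug stress and as a companion of cell death. The data measure mRNA: they do not measure LC3 lipidation, p62 protein or autophagic flux.

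Levels are given as FPKM (fragments counted per length of exon and per size of the library), which divides by gene length, so that levels of different genes can be set side by side. Labels and values of the deposited table did not share a row throughout: 20 of the 38 genes stood beside their values and 18 had values from 1 to 14 rows further down, and the values were taken from there. Library totals ran from 13991697 reads in Raji-4RH chidamide replicate 1 to 21193441. Replicates of Raji-4RH chidamide differed most: the SD over 10701 genes of the log2 difference between replicates was 0.19 there and between 0.096 and 0.12 in the other 3 groups. That difference ran with GC content, with a correlation across genes of 0.40 for Raji-4RH chidamide, 0.27 for Raji-4RH DMSO, 0.14 for Raji chidamide and -0.50 for Raji DMSO, and its part in the results was not tested beyond the GC-corrected counts given at the end. The B cell identity of the libraries held: all 9 B cell markers were present in every library, from 5.32 FPKM for EBF1 up to 1317 for CD74. Of 13 markers of other cells the highest was CSF1R at 5.06 FPKM, and their sum moved with the drug: 1.77 to 1.89 FPKM in Raji-4RH DMSO, 12.5 to 13.7 in Raji-4RH chidamide, 3.67 to 3.95 in Raji DMSO and 8.77 to 9.76 in Raji chidamide. Of the 5 that passed the filter on low values, 4 were higher and none lower with chidamide in Raji-4RH (median log2 difference 1.38), and 3 were higher and 1 lower in Raji (0.48). CD3E reached 4.10 and LYZ 4.13 FPKM, in Raji-4RH chidamide libraries, while the highest values of EPCAM and CD2 were 0.0647 and 0.128. The part of these markers in the results was not tested. In bulk RNA, fewer cells of a type and less RNA per cell cannot be told apart.

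Upstream sequence of 4 genes is shown, all of them with a match to a motif searched for. TFEB and TFE3 belong to this group, and the motif they are known to bind can be looked for directly. GABARAPL1 has no match to that motif. The 250 bases before the RefSeq start (GRCh38.p14) were searched on both strands for CACGTG (the E-box), its extended form TCACGTGA, and TGACGTCA, the cyclic AMP response element. TGACGTCA was added after the letters of the GABARAPL1 window were read. TCACGTGA contains CACGTG, so each match of the first is a match of the second. RefSeq windows were matched for 34 of the 39 genes. CACGTG was found for 5 of them (CTSD, LAMP1 and MCOLN1, and ATG14 and ATG3, which are not shown). That was 5 of the 44 windows of these genes, and 6.34% of all 35116 windows held it. TCACGTGA was found for LAMP1 and MCOLN1, in 2 of the 44 windows and in 0.854% of all windows. TGACGTCA was found for GABARAPL1, in 1 of the 44 and in 1.65% of all windows. Capitals mark the motif, and each window reads 5′ to 3′ on the strand of its gene.
GABARAPL1, chr12:10212627-10212876, plus strand: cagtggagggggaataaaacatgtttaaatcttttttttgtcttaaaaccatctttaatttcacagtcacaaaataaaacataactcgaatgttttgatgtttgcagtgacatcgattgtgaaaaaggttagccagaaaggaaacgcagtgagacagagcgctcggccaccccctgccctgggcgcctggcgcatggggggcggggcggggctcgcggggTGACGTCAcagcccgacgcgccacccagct
LAMP1, chr13:113296989-113297238, plus strand: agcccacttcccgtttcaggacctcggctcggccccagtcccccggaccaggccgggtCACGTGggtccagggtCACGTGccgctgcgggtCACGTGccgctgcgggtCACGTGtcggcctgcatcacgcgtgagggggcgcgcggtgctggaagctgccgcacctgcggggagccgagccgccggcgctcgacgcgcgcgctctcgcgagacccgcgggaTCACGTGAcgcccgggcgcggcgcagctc
MCOLN1, chr19:7522374-7522623, plus strand: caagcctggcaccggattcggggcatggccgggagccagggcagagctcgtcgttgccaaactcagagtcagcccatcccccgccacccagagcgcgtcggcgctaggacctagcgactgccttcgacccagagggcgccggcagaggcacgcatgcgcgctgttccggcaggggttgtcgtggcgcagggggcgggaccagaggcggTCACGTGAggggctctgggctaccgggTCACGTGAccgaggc
CTSD, chr11:1763928-1764177, minus strand: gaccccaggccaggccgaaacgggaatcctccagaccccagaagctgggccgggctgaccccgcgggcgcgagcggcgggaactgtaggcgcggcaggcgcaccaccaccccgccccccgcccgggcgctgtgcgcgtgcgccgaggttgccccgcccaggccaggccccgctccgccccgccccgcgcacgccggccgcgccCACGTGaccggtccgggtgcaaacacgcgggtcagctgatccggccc
LAMP1 held 5 matches, starting 192, 176, 159, 142 and 29 bases before the start. MCOLN1 held 2, at 42 and 15 bases, CTSD 1 at 47 bases and GABARAPL1 1 at 30 bases. These matches are letters in a window and no measure of binding.

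In Raji-4RH, chidamide shifted most of the group, as it did most of all genes tested, and the calls in the group were mainly upward. Of the 36 genes that passed the filter on low values, 23 were higher with chidamide, 6 were lower and 7 did not pass the test (limma, adjusted p under 0.05). Among all 10705 genes tested 43.3% were higher and 31.6% lower, against 63.9% and 16.7% of the 36. The median log2 difference of the 36 genes was 0.43 and that of all genes 0.09. All 16 called genes that moved by at least 0.5 on the log2 scale were higher, OPTN among them. The share of all genes at that cut was not counted, so this count has no background beside it. ULK2 and DRAM1 were under the filter, without which 30 of the 38 genes were called, and OPTN passed it only through Raji chidamide.

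In Raji fewer of these genes were called with the same treatment. With chidamide 12 were higher, none was lower and 24 did not pass the test, beside 31.5% higher and 28.5% lower among all genes. So 33.3% of the 36 were higher, near the background, while the lower count of 0 stood beside a background of 28.5%. OPTN, one of the 12, passed the filter only through Raji chidamide, and without it 11 of 35 were higher. The direction of small changes depended on scaling: quantile normalization gave 12 higher and 3 lower, and median-centred libraries 10 higher and 1 lower. Voom on the reads and the GC correction each gave 15 higher and 1 lower. With only the Raji libraries fitted the counts were 15 and 1, beside 3572 and 3189 of all 10705 genes. The 1 lower was ATG3 each time. With only the Raji-4RH libraries the counts there were 22 and 4. The main fit pooled the spread of all 8 libraries, so the Raji count also rests on the Raji-4RH replicates. The median was 0.09, against 0.02 for all genes. All 12 genes that rose in Raji also rose in Raji-4RH, and 11 more rose in Raji-4RH and were not called in Raji. Another 6 fell in Raji-4RH and were not called in Raji, and 7 were called in neither line. The same cross-count was not made over all genes, so whether this overlap is particular to the group was not tested. A call in 1 line only is no test of a difference between the lines. That test is given with most genes and in a paragraph of its own.

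**Figure D1:**
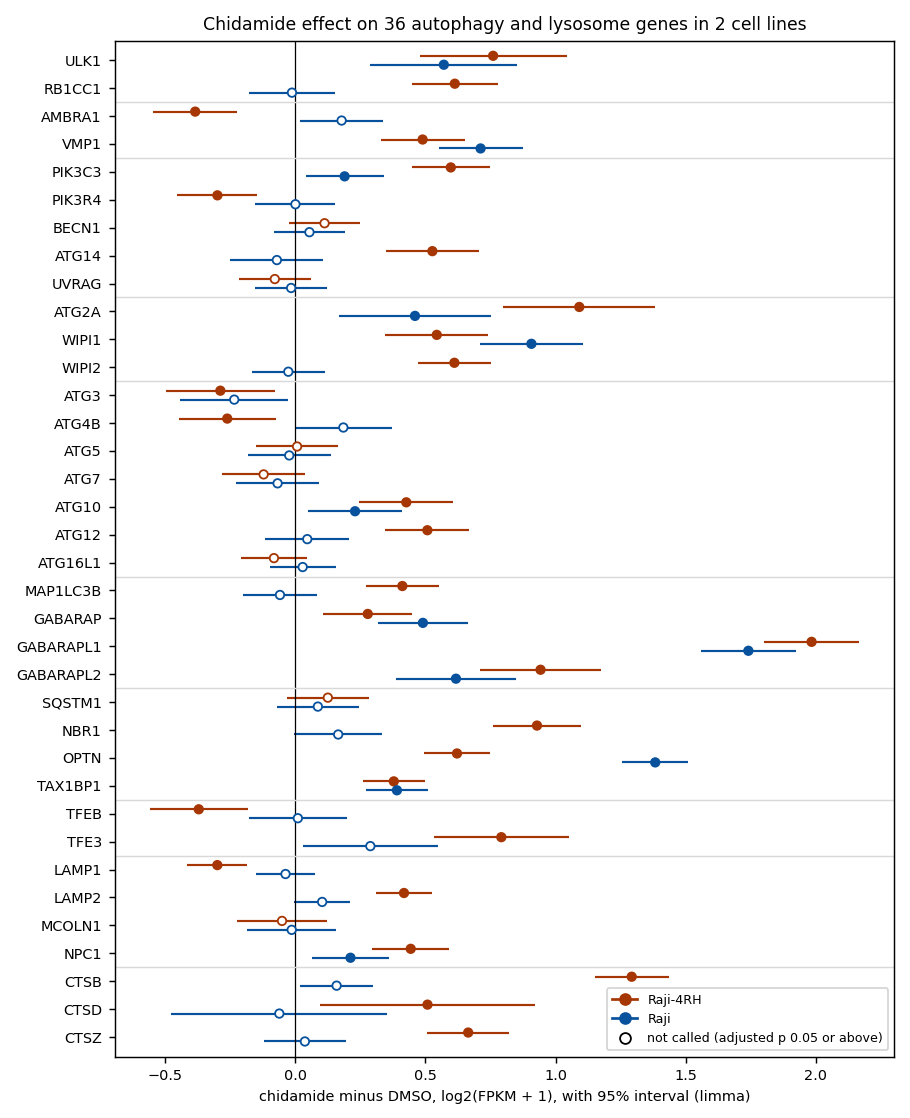
Difference between chidamide and DMSO (x axis, log2(FPKM + 1)) for the 36 tested genes, ordered by role from initiation at the top to lysosomal enzymes at the bottom, with Raji-4RH above Raji in each row. Filled points passed the test, open points did not, and lines are 95% intervals from limma. GABARAPL1 lies farthest to the right in both lines (1.98 and 1.74), and the points left of zero that passed the test are all from Raji-4RH.

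Chidamide raised both tested genes of the ULK1 complex in Raji-4RH, where 43.3% of all genes tested were higher. ULK1, the kinase that starts autophagosome formation, measured 2.52 and 2.45 FPKM in Raji-4RH DMSO and 4.16 and 5.75 in Raji-4RH chidamide. In Raji it measured 4.31 and 3.55 with DMSO and 6.19 and 6.42 with chidamide. Treated and control libraries did not overlap in either line. The log2 differences were 0.76 ± 0.12 (SE, adjusted p = 5.3e-04) and 0.57 ± 0.12 (adjusted p = 0.0040), and the difference between them, 0.19, did not pass the test (adjusted p = 0.39, 95% interval -0.21 to 0.59). RB1CC1 (FIP200), the scaffold of the complex, went from 5.59 and 5.58 to 9.23 and 8.93 FPKM in Raji-4RH, 1.62 times the DMSO mean. In Raji its DMSO values of 7.83 and 8.96 enclosed the chidamide values of 8.65 and 7.94. The effect was larger in Raji-4RH by 0.63 (adjusted p = 0.0014). ULK2, a second ULK kinase, was nearly silent in Raji, with 0 reads in 3 libraries, which allows up to 0.0154 FPKM, and 2 reads in the other. It reached 0.312 and 0.254 FPKM in Raji-4RH chidamide from 0.0596 and 0.0671 in DMSO, 4.47 times the DMSO mean, at levels under the filter.

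The regulators around initiation split. VMP1, a membrane protein needed to form the autophagosome, rose in both lines. It measured 8.82 and 8.41 FPKM in Raji DMSO, 15.6 and 13.9 with chidamide, and 8.37 and 8.04 then 12.4 and 11.4 in Raji-4RH. The log2 differences of 0.71 in Raji and 0.49 in Raji-4RH did not pass the test of their difference (adjusted p = 0.096). With the GC correction that difference was called (-0.26, adjusted p = 0.033). AMBRA1, a partner of Beclin 1, moved the other way in Raji-4RH, from 8.07 and 7.74 to 5.39 and 6.28 FPKM. In Raji its values were 5.94 and 5.86 with DMSO and 6.74 and 6.87 with chidamide, which missed the threshold (adjusted p = 0.055). AMBRA1 was called higher in Raji with voom (0.21, adjusted p = 0.029) and with the GC correction (0.17, adjusted p = 0.026). So it was with the Raji libraries alone (0.18, adjusted p = 0.029). The effects differed by -0.56 (adjusted p = 0.0021). DRAM1, a lysosomal membrane protein under p53 control, stayed under the filter. It went from 0.0363 and 0.0119 FPKM (3 and 1 reads) to 0.360 and 0.345 in Raji, and from 0.0638 and 0.0677 to 0.308 and 0.260 in Raji-4RH.

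The class III PI3K complex did not move as a unit. In Raji-4RH its catalytic subunit PIK3C3 (VPS34) and its autophagy subunit ATG14 rose, its regulatory subunit PIK3R4 (VPS15) fell, and BECN1 and UVRAG did not pass the test. PIK3C3 went from 2.32 and 2.34 to 4.002 and 4.07 FPKM in Raji-4RH (log2 difference 0.60 ± 0.07). In Raji it went from 1.63 and 1.91 to 2.19 and 2.12, a call (adjusted p = 0.034) that was lost without either Raji chidamide library, without Raji DMSO replicate 1 and without either Raji-4RH DMSO library, where the value ranged from 0.12 to 0.21. Quantile normalization turned the Raji value to -0.05. The effect was larger in Raji-4RH by 0.41 (adjusted p = 0.0072). ATG14, which directs the complex to autophagosomes, measured 3.16 and 3.21 FPKM in Raji-4RH DMSO and 5.08 and 4.98 with chidamide. The Raji libraries, at 2.50 and 3.09 with DMSO and 2.55 and 2.65 with chidamide, overlapped, and the lines differed by 0.60 (adjusted p = 0.0026). PIK3R4 had means of 9.46 and 7.51 FPKM in Raji-4RH DMSO and chidamide (log2 difference -0.30) and 6.68 in both Raji groups, a difference between lines of -0.30 (adjusted p = 0.030). That call was lost without Raji-4RH chidamide replicate 1, Raji DMSO replicate 1, or either library of Raji-4RH DMSO or Raji chidamide (values from -0.31 to -0.23). BECN1 (Beclin 1) differed between the lines. It stood at 5.86 and 6.45 FPKM in Raji DMSO, 6.27 and 6.57 in Raji chidamide, 9.35 and 9.20 in Raji-4RH DMSO and 10.1 in both Raji-4RH chidamide libraries. UVRAG, which replaces ATG14 in the endosomal form of the complex, showed the opposite line difference: 12.5 and 12.04 in Raji DMSO, 12.1 and 12.2 in Raji chidamide, 6.48 and 6.99 in Raji-4RH DMSO and 6.08 and 6.57 in Raji-4RH chidamide. Neither passed the chidamide test in either line, with 95% intervals of -0.02 to 0.25 for BECN1 and -0.22 to 0.06 for UVRAG in Raji-4RH. UVRAG was called lower in Raji-4RH with median-centred libraries (-0.15, adjusted p = 0.041) and under quantile normalization (-0.19, adjusted p = 0.017).

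The 3 genes that read PI3P or bring lipid to the growing membrane all rose in Raji-4RH, by different amounts. Of all genes tested, 43.3% were higher there. ATG2A (chr11:64894546-64917248, minus strand), a lipid transfer protein, went from 7.76 and 8.91 to 16.3 and 21.7 FPKM in Raji-4RH, 2.28 times the DMSO mean, and from 11.1 and 9.51 to 14.6 and 14.5 in Raji. The effect was larger in Raji-4RH by 0.63 (adjusted p = 0.019), and that call was lost without Raji-4RH DMSO replicate 1, Raji DMSO replicate 1 or either Raji chidamide library (adjusted p up to 0.077). The Raji rise of 0.46 was itself not called without either Raji chidamide library or without Raji DMSO replicate 2. WIPI1 (chr17:68420948-68457513, minus strand), a PI3P-binding protein, had its lowest level in Raji DMSO, at 0.432 and 0.511 FPKM, and reached 1.87 and 1.65 with chidamide, a 3.73-fold rise. In Raji-4RH it went from 3.75 and 3.70 to 6.47 and 5.35, a 1.59-fold rise. On the log2(FPKM + 1) scale the effect was smaller in Raji-4RH by 0.36 (a difference of -0.36, adjusted p = 0.037). This call was lost without any one of the libraries except Raji-4RH chidamide replicate 1, under quantile normalization (-0.12, adjusted p = 0.53) and with no filter on low values (adjusted p = 0.072). WIPI1 shares 28.1% of its exon bases with genes on the other strand, among them ARSG, and reads from there cannot be told apart. WIPI2 (chr7:5190188-5233826), the paralog that recruits ATG16L1, measured 9.08 and 9.05 FPKM in Raji-4RH DMSO and 14.9 and 13.9 with chidamide, while the Raji values of 13.2 and 14.3 with DMSO and 13.2 and 13.8 with chidamide overlapped. The lines differed by 0.64 (adjusted p = 5.4e-04).

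The conjugation enzymes, which attach ATG8 proteins and ATG12 to their targets, moved in both directions. Of 7 in Raji-4RH, 2 rose (ATG10 and ATG12), 2 fell (ATG3 and ATG4B) and 3 did not pass the test (ATG5, ATG7 and ATG16L1). Among all genes tested there, 43.3% were higher and 31.6% lower. ATG12, the ubiquitin-like protein joined to ATG5, went from 5.64 and 5.57 to 8.72 and 8.07 FPKM in Raji-4RH. In Raji its values were 4.35 and 4.99 with DMSO and 4.90 and 4.79 with chidamide, and the lines differed by 0.46 (adjusted p = 0.0056). ATG10, the E2 enzyme for ATG12, was low, with group means of 0.979 and 1.32 FPKM in Raji and 0.986 and 1.67 in Raji-4RH. Its log2 differences of 0.23 and 0.43 turned to -0.09 and -0.18 under quantile normalization, neither of which passed the test. The Raji call was also lost without Raji DMSO replicate 1 or Raji chidamide replicate 1. ATG3, the E2 enzyme for ATG8, had means of 19.4 FPKM in Raji-4RH DMSO and 15.8 with chidamide (log2 difference -0.29, adjusted p = 0.018) and 22.6 and 19.0 in Raji (-0.23, adjusted p = 0.052). ATG3 was called lower in Raji with voom (-0.25, adjusted p = 0.024) and with the GC correction (-0.26, adjusted p = 0.023). So it was with the Raji libraries alone (-0.23, adjusted p = 0.013) and with median-centred libraries (-0.28, adjusted p = 0.041). Its difference between the lines, -0.05, did not pass the test (adjusted p = 0.75). ATG4B, the protease that matures ATG8 proteins, had means of 15.2 and 12.6 in Raji-4RH and 18.6 and 21.2 in Raji, and the effects differed by -0.45 (adjusted p = 0.013). In Raji ATG4B was not called (0.18, adjusted p = 0.080). It was called higher in Raji with voom (0.19, adjusted p = 0.041) and with the GC correction (0.17, adjusted p = 0.027). So it was under quantile normalization (0.27, adjusted p = 0.019) and with the Raji libraries alone (0.18, adjusted p = 0.010). Both falls in Raji-4RH were lost without 1 library: that of ATG3 without Raji-4RH DMSO replicate 2 (-0.26) or Raji-4RH chidamide replicate 2 (-0.14), and that of ATG4B without Raji-4RH DMSO replicate 1 (-0.25) or replicate 2 (-0.28). ATG5, ATG7 and ATG16L1 had log2 differences between -0.12 and 0.01 in Raji-4RH and between -0.07 and 0.03 in Raji. ATG7 was called lower under quantile normalization in Raji-4RH (-0.64, adjusted p = 7.7e-05) and in Raji (-0.37, adjusted p = 0.0027), and ATG16L1 in Raji-4RH (-0.28, adjusted p = 0.0030). Both were also called lower in Raji-4RH with median-centred libraries (-0.20 and -0.16) and with the GC correction (-0.18 and -0.15).

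The ATG8 family, the proteins that coat the autophagosome, held the largest change of the group on the log2(FPKM + 1) scale. GABARAPL1 (chr12:10212458-10223130), whose upstream window opens the set of 4, was at 0.558 and 0.559 FPKM in Raji DMSO and rose to 4.45 and 3.97 with chidamide. In Raji-4RH it was at 2.99 and 3.09 with DMSO and at 16.1 and 13.9 with chidamide. Treated libraries were 7.55 times the DMSO mean in Raji and 4.94 times in Raji-4RH, with log2 differences of 1.74 ± 0.08 (adjusted p = 9.0e-07) and 1.98 ± 0.08 (adjusted p = 1.7e-07). Raji-4RH DMSO therefore lay between Raji DMSO and Raji chidamide. Whether the effect was larger in one line depended on the scale: the difference was 0.24 and not called with a pseudocount of 1 (adjusted p = 0.11), and -0.45 and called with 0.1 (adjusted p = 0.029). Under quantile normalization it was 0.64 and called (adjusted p = 0.0058). GABARAPL1 has a near-identical copy in the genome, GABARAPL3, which is not analysed here, so a share of its reads is uncertain. GABARAPL2 (GATE-16, chr16:75566351-75577881) rose in both lines, from 21.9 and 24.2 to 36.4 and 35.4 FPKM in Raji and from 10.5 and 10.4 to 23.7 and 18.7 in Raji-4RH. The difference between the lines, 0.32, did not pass the test (adjusted p = 0.091). GABARAP went from 10.5 and 11.3 to 15.5 and 15.9 in Raji and from 13.8 and 12.5 to 17.2 and 15.2 in Raji-4RH. Its Raji-4RH rise of 0.28 was lost without Raji-4RH DMSO replicate 2 (0.21, adjusted p = 0.075), and 55.7% of its exon bases lie in other annotated genes, so its level is uncertain. MAP1LC3B (LC3B, chr16:87383995-87404779), the most used marker of autophagosomes, behaved otherwise. It measured 10.3 and 9.31 FPKM in Raji-4RH DMSO and 13.2 and 13.5 with chidamide, and in Raji 7.24 and 7.59 with DMSO and 7.08 in both chidamide libraries. It rose by 0.41 in Raji-4RH (adjusted p = 3.2e-04), was not called in Raji (-0.06, adjusted p = 0.44), and the lines differed by 0.47 (adjusted p = 0.0027).

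Summed over these 4 ATG8 genes, mRNA was 40.2 and 43.7 FPKM in Raji DMSO, 63.5 and 62.3 in Raji chidamide, 37.6 and 35.4 in Raji-4RH DMSO, and 70.2 and 61.3 in Raji-4RH chidamide. Both lines had more with chidamide, with no overlap, and with 2 libraries against 2 no exact permutation test can go below p = 0.33. The sum and the shares leave out MAP1LC3C, a further LC3 gene outside the group. Its mean was 8.15 FPKM in Raji-4RH DMSO, 3.92 in Raji-4RH chidamide and 0 in both Raji groups. With it the Raji-4RH sums would be higher and the Raji-4RH shares lower. The sums of these 4 genes therefore do not settle which untreated line had more ATG8 mRNA. The make-up differed. GABARAPL2 gave 54.6% and 55.4% of the sum in Raji DMSO and 27.97% and 29.5% in Raji-4RH DMSO. GABARAPL1 gave 1.39% and 1.28% in Raji DMSO and 7.01% and 6.37% with chidamide, and in Raji-4RH 7.94% and 8.75%, then 22.9% and 22.7%. MAP1LC3B gave 18.0% and 17.3% in Raji DMSO and 11.1% and 11.4% with chidamide.

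**Figure D2:**
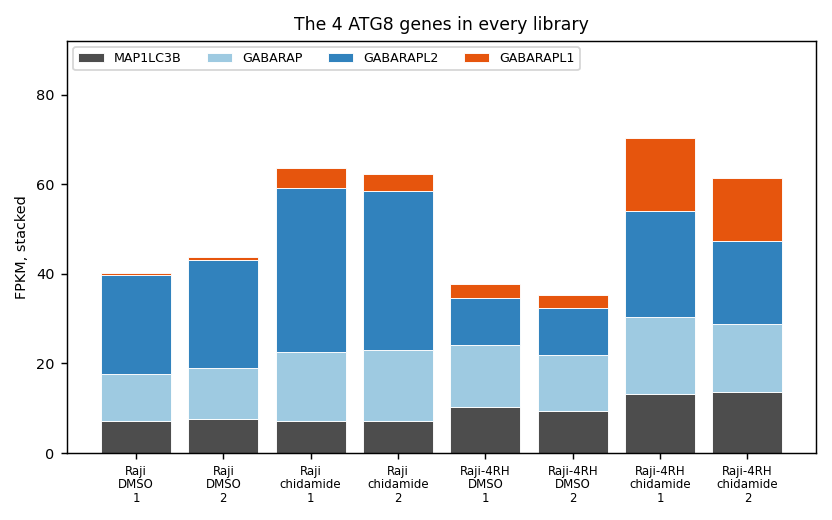
Stacked FPKM (y axis, from 0) of the 4 ATG8 genes of the group, without MAP1LC3C, in each of the 8 libraries, 1 bar a library. The sum is between 61.3 and 70.2 in the 4 chidamide libraries and between 35.4 and 43.7 in the 4 DMSO libraries, and the GABARAPL1 part is widest in Raji-4RH chidamide.

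Of 4 cargo receptors tested, 3 were called higher in Raji-4RH, beside 43.3% of all genes tested. OPTN, among the 3, passed the filter only through Raji chidamide. The exception was the best known. SQSTM1 (p62, chr5:179806398-179838078) measured 11.8 and 11.3 FPKM in Raji DMSO, 12.3 in both Raji chidamide libraries, 15.6 and 15.5 in Raji-4RH DMSO and 15.9 and 18.3 in Raji-4RH chidamide. Chidamide values were above DMSO values in each line, but the log2 differences of 0.09 (95% interval -0.07 to 0.24) and 0.13 (-0.03 to 0.28) did not pass the test. In Raji-4RH it was called under quantile normalization (0.27, adjusted p = 0.0050) and without Raji-4RH chidamide replicate 1 (0.22, adjusted p = 0.0057). SQSTM1 shares 22.04% of its exon bases with MRNIP and MGAT4B on the other strand. NBR1 (chr17:43170481-43211689), a receptor for ubiquitinated cargo related to p62, went from 8.70 and 8.13 to 17.0 and 16.8 FPKM in Raji-4RH, 2.01 times the DMSO mean. In Raji it measured 2.71 and 3.23 with DMSO and 3.34 and 3.54 with chidamide, so that all 4 Raji libraries lay below every Raji-4RH library. The effect was larger in Raji-4RH by 0.76 (adjusted p = 6.0e-04), and NBR1 kept this call without each single library. OPTN (optineurin, chr10:13099449-13138308), a receptor for damaged mitochondria and bacteria, was near silent without drug. It measured 0.138 and 0.106 FPKM (14 and 11 reads) in Raji DMSO, and 1.93 and 1.92 (204 and 206 reads) with chidamide. In Raji-4RH DMSO it had 2 reads in each library, under the floor of 3 reads, and in Raji-4RH chidamide 43 and 51 reads, or 0.598 and 0.539 FPKM. Its log2 differences were 1.38 in Raji and 0.62 in Raji-4RH. The difference between the lines was -0.76 (adjusted p = 1.4e-04), on a scale that understates changes of low genes. It kept its sign and its call with a pseudocount of 0.1 and under quantile normalization. With voom on the reads that difference was 0.61 in the other direction and was not called (adjusted p = 0.44). The part of the scale in this was not tested. Under quantile normalization the rise in Raji-4RH was 0.09 and not called. TAX1BP1, a receptor that works with NBR1, rose in both lines: from 6.92 and 7.17 to 9.66 and 9.42 FPKM in Raji (log2 difference 0.39) and from 11.2 and 11.04 to 15.0 and 14.4 in Raji-4RH (0.38). The 95% interval of the difference was -0.18 to 0.16.

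**Figure D3:**
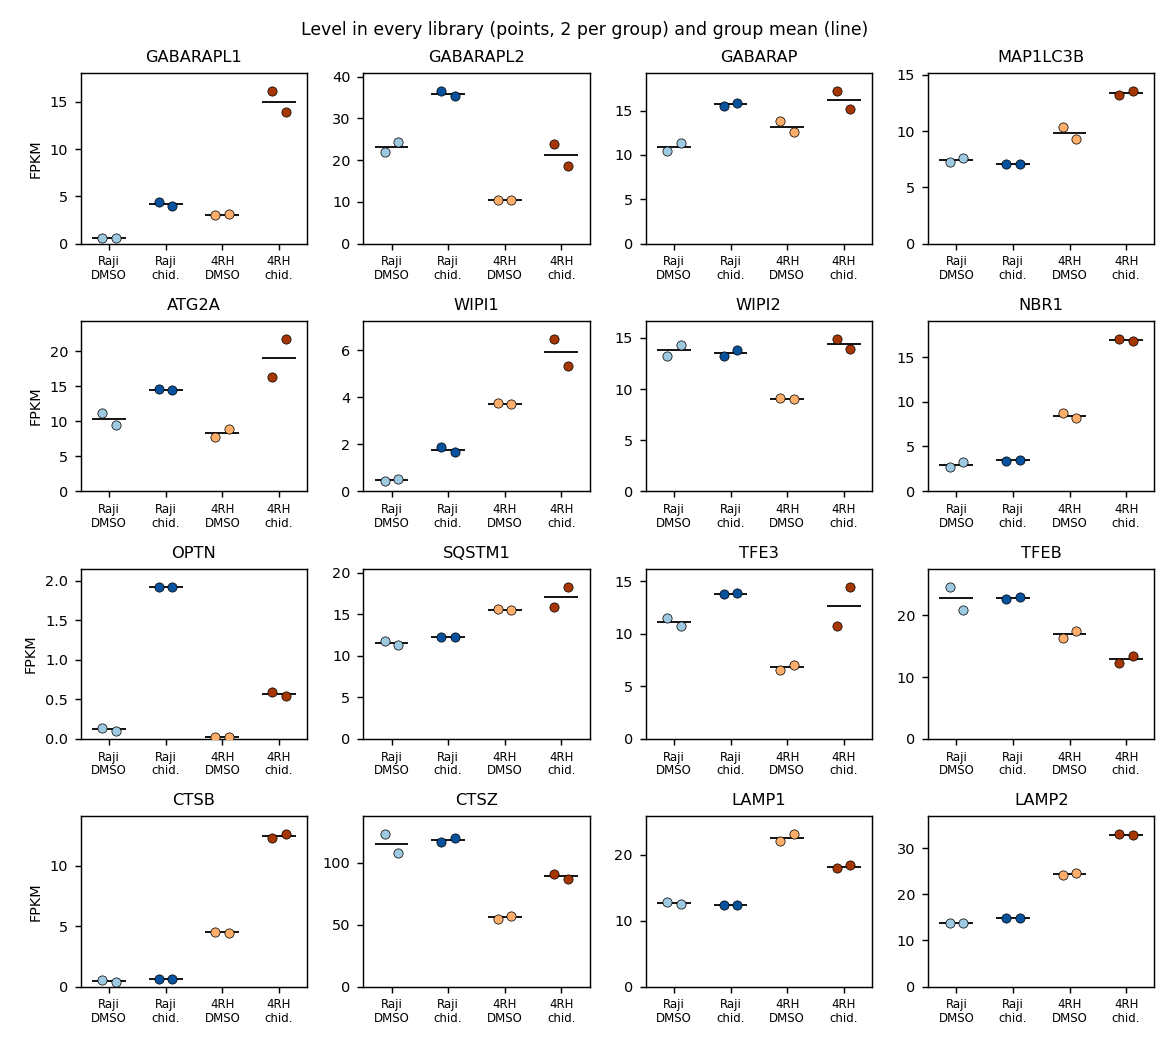
FPKM (y axis, from 0, own scale per gene) of 16 genes in each library (points, replicate 1 left of replicate 2) of Raji DMSO, Raji chidamide, Raji-4RH DMSO and Raji-4RH chidamide, with the group mean as a line. NBR1, CTSB and LAMP2 show a step between the lines and a second step with chidamide in Raji-4RH, while SQSTM1 shows the step between the lines. The row used for LAMP2 did not score best in the check around single genes.

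The master regulators moved apart in Raji-4RH. TFE3 (chrX:49028726-49043486, minus strand) went from 6.57 and 7.02 to 10.8 and 14.5 FPKM in Raji-4RH, a log2 difference of 0.79 ± 0.11 (adjusted p = 2.4e-04). In Raji it went from 11.5 and 10.8 to 13.7 and 13.9 (0.29, adjusted p = 0.055). TFE3 was called higher in Raji with voom (0.31, adjusted p = 0.023) and with the GC correction (0.28, adjusted p = 0.015). So it was under quantile normalization (0.31, adjusted p = 0.049) and with the Raji libraries alone (0.29, adjusted p = 0.0065). The lines differed by 0.50 (adjusted p = 0.030), a call lost without either library of Raji DMSO, of Raji chidamide or of Raji-4RH DMSO, and with no filter on low values (adjusted p = 0.063). TFEB had means of 16.9 FPKM in Raji-4RH DMSO and 12.9 with chidamide (-0.37, adjusted p = 0.0031) and of 22.8 in both Raji groups (0.01), a difference between the lines of -0.38 (adjusted p = 0.025). The TFEB difference between the lines was not called without Raji-4RH DMSO replicate 2, Raji DMSO replicate 2 or either Raji chidamide library. Both proteins are known to be controlled by where they sit in the cell, which mRNA does not show.

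At the lysosomal membrane, the abundant glycoproteins LAMP1 and LAMP2 went in opposite directions in Raji-4RH. The rows of LAMP2 and NPC1 are less certain than those of the other genes. In the check around single genes a shift of 11 rows scored best for LAMP2, where 0 was used. For NPC1 it was 20, where 1 was used. LAMP2 (chrX:120427827-120469365, minus strand) measured 24.1 and 24.5 FPKM with DMSO and 33.0 and 32.7 with chidamide in Raji-4RH, and 13.9 and 13.7 then 14.9 and 14.8 in Raji. LAMP1 (chr13:113297241-113323672) measured 22.2 and 23.1 then 18.0 and 18.4 in Raji-4RH, and 12.9 and 12.6 then 12.3 and 12.4 in Raji. The effect on LAMP2 was larger in Raji-4RH by 0.31 (adjusted p = 0.0050), and that on LAMP1 differed by -0.26 (adjusted p = 0.016). Both calls on LAMP1 were lost under quantile normalization, where its values were -0.11 in Raji-4RH and -0.11 for the difference, and the second also without Raji-4RH DMSO replicate 2 or either Raji chidamide library. NPC1, the cholesterol exporter of the lysosome, had means of 2.71 and 3.299 FPKM in Raji and 2.66 and 3.98 in Raji-4RH, with log2 differences of 0.21 (adjusted p = 0.021) and 0.44 (adjusted p = 2.9e-04). The Raji call was lost without either Raji DMSO or either Raji chidamide library. The difference of NPC1 between the lines, 0.23, did not pass the test (adjusted p = 0.067), and was called with voom (0.31, adjusted p = 0.044). MCOLN1, the calcium channel TRPML1, was not called in either line, with log2 differences of -0.01 and -0.05 and means from 3.49 to 4.53 FPKM. Quantile normalization gave -0.36 in Raji-4RH and called it (adjusted p = 0.0028). MCOLN1 and LAMP1 are the genes of the group with TCACGTGA in their windows.

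All 3 cathepsins were called higher in Raji-4RH and none in Raji, beside 43.3% and 31.5% of all genes tested. The difference between the lines was called for CTSB and CTSZ and not for CTSD. CTSB (cathepsin B) was close to silent in Raji, at 0.532 and 0.414 FPKM with DMSO and 0.621 and 0.666 with chidamide. It was at 4.56 and 4.44 in Raji-4RH DMSO and at 12.3 and 12.6 with chidamide, 2.77 times the DMSO mean, with no overlap among the 3 levels of Raji, untreated Raji-4RH and treated Raji-4RH. Its log2 difference in Raji-4RH was 1.29 ± 0.06 (adjusted p = 4.1e-07), and the difference between the lines, 1.13 (adjusted p = 3.3e-05), was the largest of the 36 genes. The Raji value of 0.16 (adjusted p = 0.053) turned to -0.19 under quantile normalization, which was called (adjusted p = 0.024), while a pseudocount of 0.1 gave 0.38, also called (adjusted p = 0.018). At 0.16 it was called higher without the trend in eBayes (adjusted p = 0.045) and with only the Raji libraries (adjusted p = 0.046). CTSZ (cathepsin Z, chr20:58995185-59007247, minus strand), the most abundant gene of the group, showed the opposite order of the lines. It measured 123 and 108 FPKM in Raji DMSO, 117 and 120 in Raji chidamide, 54.9 and 57.0 in Raji-4RH DMSO, and 91.3 and 87.1 in Raji-4RH chidamide. The rise in Raji-4RH, 0.66 ± 0.07, was larger than that in Raji by 0.63 (adjusted p = 0.0011). CTSD (cathepsin D, chr11:1752752-1764573, minus strand) had the largest standard error of the group. It measured 13.2 and 11.2 in Raji DMSO, 11.3 and 11.9 in Raji chidamide, 5.88 and 7.62 in Raji-4RH DMSO and 7.96 and 12.4 in Raji-4RH chidamide. The difference of CTSD between the lines, 0.57, did not pass the test (adjusted p = 0.098). That difference was called with the GC correction (0.50, adjusted p = 0.045) and with voom (0.66, adjusted p = 0.047). Its rise in Raji-4RH, 0.51 ± 0.18 (adjusted p = 0.031), was not called without Raji-4RH chidamide replicate 2 (0.22) or Raji-4RH DMSO replicate 1 (0.35), and 52.7% of its exon bases lie in other annotated genes.

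The chidamide effect differed between the lines for 19 of the 36 genes. It was more positive in Raji-4RH for 12 and less positive or more negative for 7. These shares, 33.3% and 19.4%, were close to the background of 27.2% and 21.7% of all genes tested. The 12 were RB1CC1, PIK3C3, ATG14, ATG2A, WIPI2, ATG12, MAP1LC3B, NBR1, TFE3, LAMP2, CTSB and CTSZ, and the 7 were AMBRA1, PIK3R4, WIPI1, ATG4B, OPTN, TFEB and LAMP1. OPTN is in this count too, which is 18 of 35 without it. Of the 19 calls, 13 stayed without each single library. The count was lowest, at 13, without either Raji chidamide library, and highest, at 23, without Raji-4RH chidamide replicate 1. The 2 ATG8 genes with the largest rises, GABARAPL1 and GABARAPL2, and ULK1 were among the 17 whose difference was not called. That does not make their effects equal. With each library left out, the difference ran from 0.16 to 0.49 for GABARAPL2 and from -0.0044 to 0.38 for ULK1.

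**Figure D4:**
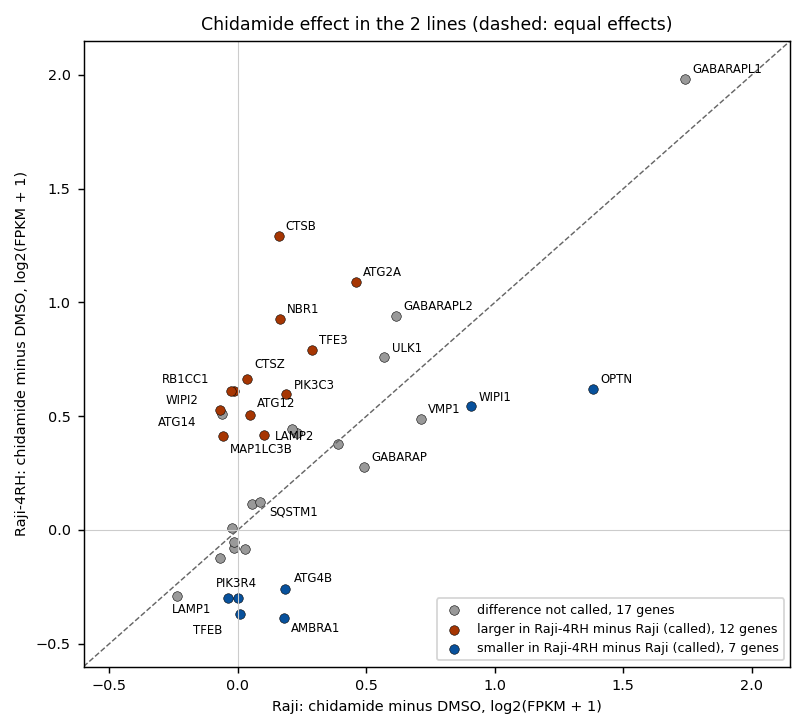
Chidamide effect in Raji (x axis) against that in Raji-4RH (y axis), both as log2(FPKM + 1), for the 36 genes; the dashed line marks equal effects. The 12 genes coloured for a larger effect in Raji-4RH lie above the line, CTSB farthest, and the 7 for a smaller one lie below it, with WIPI1 and OPTN positive in both lines.

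Without drug the lines already differed in most of these genes: 17 of the 36 were higher in Raji-4RH DMSO than in Raji DMSO and 12 were lower, beside 41.2% and 32.4% of all genes, so the shares of 47.2% and 33.3% were close to the background. Quantile normalization gave 13 higher and 14 lower, and median-centred libraries 16 and 15. The genes of at least 0.5 higher in Raji-4RH were CTSB (1.90), WIPI1 (1.68), GABARAPL1 (1.38), NBR1 (1.25), LAMP1 (0.78), LAMP2 (0.78), TAX1BP1 (0.59) and BECN1 (0.52). Those of at least 0.5 lower were GABARAPL2 (-1.07), CTSZ (-1.03), UVRAG (-0.78), CTSD (-0.77), TFE3 (-0.64), WIPI2 (-0.56) and RB1CC1 (-0.51). Calls of ULK1, ATG4B, ATG5, ATG12, GABARAP and MCOLN1 were lost without 1 of the DMSO libraries, and the count was lowest, at 23, without Raji DMSO replicate 1. In FPKM, CTSB was 9.51 times, WIPI1 7.90 times and GABARAPL1 5.45 times the Raji mean. This comparison shares its DMSO libraries with the chidamide comparisons, so the values stand beside each other and no relation between them was tested.

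Other genes of the pathway, in lists chosen by function, moved in both lines, and their counts stand beside the 43.3% of all genes that were higher in Raji-4RH and the 31.5% in Raji. Of 23 other core autophagy genes tested, 11 rose and 4 fell in Raji-4RH, and 7 rose and 4 fell in Raji. STX17, the SNARE that fuses autophagosomes with lysosomes, rose by 1.21 in Raji-4RH and 0.81 in Raji. VAMP8, its partner SNARE, fell by 0.76 in Raji-4RH and by 1.03 in Raji. NRBF2, a PI3K complex subunit, rose by 0.85 and 0.54, ATG16L2 by 0.96 and 0.31, and the protease ATG4D fell by 0.45 and by 0.30. MAP1LC3C, a further LC3 gene, was at a mean of 8.15 FPKM in Raji-4RH DMSO and 3.92 with chidamide (-0.89) and was listed at 0 in Raji. WDR45 rose by 0.22 in Raji-4RH and fell by 0.51 in Raji, and ZFYVE1 rose by 0.62 and 0.52. Of 11 other selective autophagy genes, 5 rose and 1 fell in Raji-4RH, and 5 rose and 2 fell in Raji. The mitophagy genes PINK1 (1.00 and 0.66 in Raji-4RH and Raji) and BNIP3L (0.83 and 0.48) rose in both lines, as did TOLLIP (0.50 and 0.32) and CALCOCO2 (NDP52, 0.49 and 0.51). TEX264, a receptor for the endoplasmic reticulum, fell by 0.51 and by 0.55, and SEC62 rose by 0.36 in Raji-4RH and fell by 0.17 in Raji.

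Lysosomal genes outside the group rose more often than they fell in both lines. Of 39 other lysosomal enzymes tested, 24 rose and 6 fell in Raji-4RH and 22 rose and 5 fell in Raji. PSAP, the precursor of the saposins, went from a mean of 226 to 675 FPKM in Raji-4RH (log2 difference 1.57) and from 80.4 to 204 in Raji (1.34). The acid lipase LIPA rose by 1.40 and 1.28, and the protease LGMN by 1.09 and 1.57. IDUA rose by 1.19 in Raji-4RH and was near 0 in Raji, with means of 0 FPKM with DMSO and 0.0120 with chidamide. The glycosidases GLA (-1.30 and -0.62) and GUSB (-0.72 and -0.55) and the peptidase DPP7 (-0.57 and -0.50) fell. Of 24 other membrane genes, 13 rose and 2 fell in Raji-4RH, and 12 rose and 2 fell in Raji. The lipid transporter ABCA2 (2.73 and 1.54) and LAPTM5 (1.23 and 1.45) rose in both lines, as did LAMP3 (1.25 and 0.55) and LMBRD1 (1.02 and 1.00). GGA2 fell by 0.43 and by 0.34. TPCN2 fell by 0.27 in Raji-4RH and was not called in Raji (-0.21), and TMEM192 fell by 0.21 in Raji and was not called in Raji-4RH (0.08). Among 19 genes of the V-ATPase, the proton pump, 12 rose and 2 fell in Raji-4RH and 8 rose and 4 fell in Raji. In Raji-4RH and Raji, ATP6V0A1 rose by 1.499 and 0.84, ATP6V1A by 1.28 and 0.51, ATP6AP2 by 0.72 and 0.38, ATP6V0D1 by 0.17 and 0.67, and TCIRG1 by 0.50 and 0.58. ATP6V0B (-0.67 and -0.36) and ATP6V0A2 (-0.47 and -0.50) fell in both lines, and ATP6V1C2 rose by 0.52 in Raji-4RH and fell by 0.24 in Raji.

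Of 33 genes of nutrient sensing and mTORC1 control, which hold autophagy in check or release it, 21 rose and 6 fell in Raji-4RH and 16 rose and 3 fell in Raji. SESN3, a sestrin that restrains mTORC1, had the largest rise, from a mean of 1.21 to 17.5 FPKM in Raji-4RH (3.07), and rose by 1.19 in Raji. RRAGD rose by 1.53 and 1.501, and the FOXO factors FOXO4 by 1.218 and 0.79 and FOXO3 by 1.14 and 1.31. DDIT4 (REDD1), an inhibitor of mTORC1, rose by 2.37 in Raji, from a mean of 19.1 to 103 FPKM, and by 0.48 in Raji-4RH. The mTORC1 subunits MLST8 (-0.84 and -0.78) and RPTOR (-0.72 and -0.31) fell in both lines, as did PRKAB1 (-0.30 and -0.31), while SESN2 fell by 0.97 in Raji-4RH and rose by 0.37 in Raji. Medians over the 6 lists in Raji-4RH ran from 0.15 for selective autophagy to 0.47 for lysosomal enzymes, and in Raji from 0.02 to 0.31 for the same lists, against 0.09 and 0.02 for all genes.

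**Figure D5:**
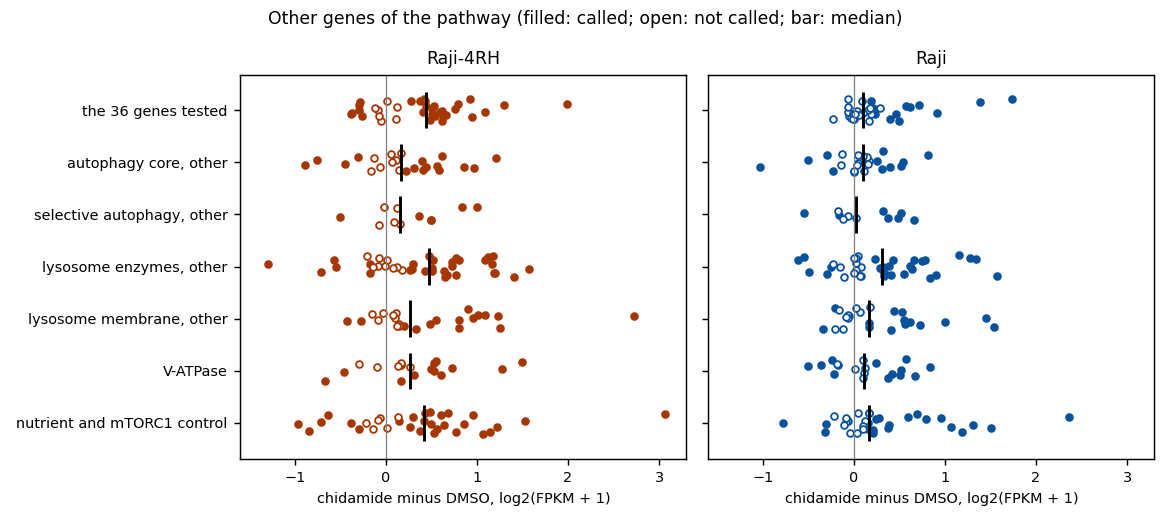
Chidamide effect (x axis, log2(FPKM + 1)) of each tested gene of the group and of 6 lists of other pathway genes (rows), in Raji-4RH at the left and Raji at the right. Filled points passed the test, open points did not, and the bar is the median. The median of the 36 genes is 0.43 in Raji-4RH and 0.09 in Raji, while that of the other lysosomal enzymes is 0.47 and 0.31.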

How the data were processed

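RNA-seq of 8 libraries was analyzed, 2 for each of 4 groups taken from the labels. The authors deposited 1 table that holds FPKM for each library beside gene lengths. Per the labels, HISAT2 2.0.5, SAMtools 1.7, HTSeq 0.9.1 and DESeq2 1.22.2 and the build hg38 are named in the submitters' processing notes, with no parameters or strand setting. Every value column was mapped to a sample.

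Multiplied by length and library total, 100% of non-zero FPKM values came out as whole reads (tolerance 0.05 reads). The table has 63967 rows, but the totals equal sums over the first 63305, and the last 662 repeat the first 662, so labels and values are out of register. Values were taken from a fixed number of rows below each label, and FPKM recomputed with the label's own length. In 12 of 12 blocks, the number of rows used gave the strongest negative correlation, among shifts up to 20 rows, between reads and labels of usually silent kinds; around single genes it did so for 36 of 38 (not LAMP2 and NPC1). This placed 18113 genes and 90.7% to 93.2% of reads. For 37 of the 38 genes (not ATG5) the length equals the GENCODE v29 exon length, and gene coordinates are those of GENCODE v29 (GRCh38).

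Differences were tested with limma 3.58.1 (lmFit, eBayes with trend; R 4.3.3) on log2(FPKM + 1), with group means for all 8 libraries and no term for the replicate number. The fit took 10705 genes, each reaching 1 FPKM in 2 or more libraries. This scale understates changes of low genes. The call was a p-value under 0.05 after Benjamini-Hochberg adjustment. As the values are FPKM, no count model was the main test; voom on the recovered reads was an alternative. Read floors (3 reads) and depth cover counting error only. The test was checked on simulated data. Per-library values are given for ATG8 genes, SQSTM1 and called genes with a log2 difference of at least 0.5 in any comparison, and from each other list at most the 3 largest called rises and falls per line. The genes and lists were chosen with earlier results of these data known. Same-numbered replicates did not deviate together. Promoter windows are RefSeq's. Alternatives were pseudocount, filter, scaling, voom, eBayes without trend, the libraries compared alone, a replicate block, each library left out and the rows as deposited; GC correction and a crossed block were added after seeing the data. Python 3.11.15 with pandas 2.3.3, numpy 2.4.6 and matplotlib 3.10.9 was used.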

Additional observations from a re-analysis of the deposited data

Results flagged for a closer look

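The chidamide effect differed between the lines, by the interaction term of the limma fit, for 19 of the 36 genes. The shares of 33.3% in the positive and 19.4% in the negative direction were close to the 27.2% and 21.7% of all genes. Values are the log2 effect in Raji-4RH minus that in Raji. Among initiation and membrane genes, the values were 0.63 for RB1CC1, 0.41 for PIK3C3, 0.60 for ATG14, 0.63 for ATG2A and 0.64 for WIPI2, and -0.56 for AMBRA1, -0.30 for PIK3R4 and -0.36 for WIPI1. Among conjugation and ATG8 genes they were 0.46 for ATG12, 0.47 for MAP1LC3B and -0.45 for ATG4B. Among receptors they were 0.76 for NBR1 and -0.76 for OPTN. Among transcription factors they were 0.50 for TFE3 and -0.38 for TFEB, and among lysosomal genes 0.31 for LAMP2, 1.13 for CTSB, 0.63 for CTSZ and -0.26 for LAMP1. The calls on PIK3R4, ATG2A, WIPI1, TFEB, TFE3 and LAMP1 were lost without at least 1 of the libraries named with each gene, and that on OPTN had the other sign with voom.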

How the results depend on the processing

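The counts of called genes were 29 in Raji-4RH, 12 in Raji, 19 for the difference between the lines and 29 for the untreated lines. With a log2 difference of at least 0.5 they fell to 16, 6, 10 and 15. Over the other alternatives they ran within 1.5 times of these values. With each library left out they ran from 26 to 30, 8 to 17, 13 to 23 and 23 to 32, where a lone library is assumed to vary like the other groups; the Raji count of 8 came without Raji chidamide replicate 1. With the GC correction they were 31, 16, 21 and 31.

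Same-numbered replicates deviated with correlations from -0.28 to 0.17, so they share only a number; a replicate block gave counts of 29, 12, 19 and 29 and changed no call of the 36 genes. A crossed pairing of the DMSO libraries gave 30 calls for the untreated lines.

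Quantile normalization moved the median of all genes in Raji-4RH from 0.09 to -0.02 and turned ATG10 in Raji-4RH (-0.18) and PIK3C3 (-0.055), ATG10 (-0.0904) and CTSB (-0.19) in Raji; over all genes it gave 3715 higher and 4055 lower in Raji-4RH and 2644 and 3430 in Raji. For the difference between the lines, GABARAPL1 turned with a pseudocount of 0.1 (-0.45; 0.64 and called under quantile normalization) and OPTN with voom (0.61). Values read from the label's own row belong to other genes by construction. They turned WIPI2 (-0.35), ATG4B (0.0646), LAMP1 (0.0379) and NPC1 (-0.50) in Raji-4RH, MAP1LC3B (0.44) and NPC1 (-0.14) in Raji, UVRAG (0.38), WIPI2 (-0.18) and NPC1 (-0.36) for the difference, and MAP1LC3B (-0.0029) and GABARAPL1 (-2.25) between the untreated lines. Apart from that last setting, the cause of each turn was not tested. Depth limits the lowest genes: ULK2 and DRAM1 rest on at most 46 and 31 reads a library.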
